A study of Drosophila melanogaster with 16 samples.

Results

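The comparison described here is that of TFAM overexpression with control in the larval central nervous system (CNS). It uses the 4 libraries titled as TFAM overexpression without an RNAi and the 4 titled as control, which are 8 of the 16 libraries of the series. The other 8 carry an ATF4 RNAi or an ATF4 transgene and entered only 1 of the alternative fits. Control larvae carried the driver alone (nsybGal4/+), and TFAM overexpression larvae carried the same driver with the transgene (nsybGal4>UAS-TFAM3M). Both groups therefore shared nsybGal4, in which the promoter of a neuronal synaptobrevin gene drives the yeast activator Gal4 in neurons. Glia and other non-neuronal cells are not driven by it but remain in the dissected tissue. Only the TFAM overexpression larvae carried a UAS insertion. Neither group carried such an insertion without TFAM, so effects of strain or insertion site were not tested. Each replicate pooled the whole CNS of 20 wandering larvae late in the third instar, raised at 25 degrees, so that 1 library is a mean over 20 animals of unstated sex. Nothing in the sources used here says whether replicates came from separate crosses, and p values measure the spread between these pools.

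TFAM is a nuclear-encoded HMG-box protein of the mitochondrial matrix that promotes transcription of mitochondrial DNA and packs it into nucleoids. An excess of it is known to repress mitochondrial transcription, which makes its overexpression a way of stressing mitochondria. Cells answer such stress in part through ATF4, a transcription factor whose translation rises when initiation factor eIF2alpha is phosphorylated, and whose known targets include genes of amino acid synthesis, translation control and chaperones. In Drosophila ATF4 is encoded by crc.

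Total counts per library were between 18215062 and 24778270. Counts were scaled to CPM, in which every library has the same total, with TMM factors to correct for composition, and 9355 genes passed the filter on low counts and were tested with edgeR's quasi-likelihood test. A gene was called at a Benjamini-Hochberg adjusted p under 0.05 with at least a 1.2-fold difference. In all, 25 genes were called up (0.267% of those tested) and 3 were called down (0.0321%), and the median log2 fold change of all genes tested was -0.01. All 28 differed by at least 2-fold, and none had a TFAM overexpression library within the range of the control libraries, a separation that 1.65% of all genes tested showed upward and 1.82% downward. With 4 libraries against 4, an exact permutation test of 1 separated gene gives p = 0.0286 (two-sided), the smallest that is possible. Chance alone separates genes at that rate over both directions, so separation is given below only to describe the values. Libraries also differed in how strongly expression rose with gene length. The slope of log2 CPM on each doubling of exon length was between 0.672 and 0.98 in 7 libraries and 0.43 in control replicate 3. TFAM overexpression replicate 2 had the lowest slope of its own group, and a list median that moved by more than 0.1 with the slope as a covariate, or without these 2 libraries, is given with the moved value. The 38 mitochondrially encoded genes in the count tables were at 0 throughout, so the transcripts that TFAM acts on directly were not measured here.

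**Figure D1:**
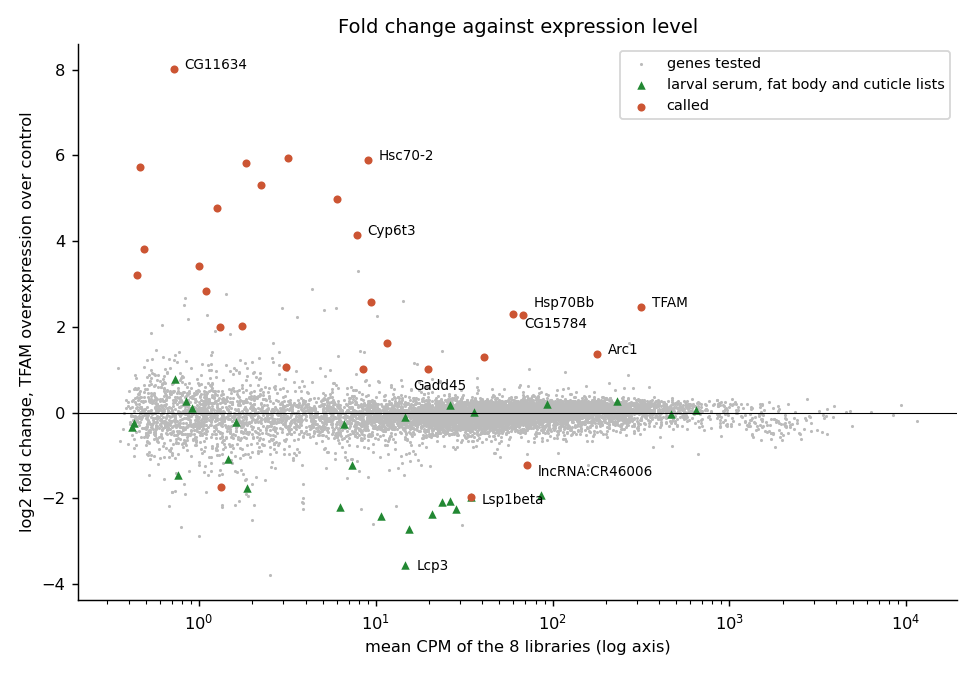
Log2 fold change of TFAM overexpression over control (y axis) against the mean CPM of the 8 libraries (x axis, log scale) for the 9355 genes tested, with the 28 called genes as red circles and members of the larval serum, fat body and cuticle lists as green triangles. Called genes lie mostly above 0 and reach from low levels to that of TFAM, and most green triangles lie below 0.

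The targeted gene was higher in every library of its group. TFAM (FBgn0038805, 3R from 20575245 to 20577010 of dm6) had 71.1, 84.5, 139.5 and 93.4 CPM in control replicates 1 to 4 and 392, 662, 552.5 and 525 CPM in TFAM overexpression replicates 1 to 4. Every TFAM overexpression library lay above every control library, and the groups differed 5.49-fold (log2 fold change 2.46, SE 0.25, adjusted p = 0.00341 in edgeR's test). Reads of the transgene and of the endogenous gene cannot be told apart in these counts. Among 12 tested genes for the maintenance and expression of mitochondrial DNA, TFAM was the only one called, and the median log2 fold change of the list was -0.06.

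The genes with the largest rises were nearly silent in control CNSs. Of the 28 called genes, 15 had a mean below 1 CPM in control, and of the 25 that rose, 13 remained below a mean of 10 CPM in TFAM overexpression. A library's level of 3 counts, taken as the floor, corresponded to 0.121 to 0.165 CPM. In 6 rising genes no control library exceeded 3 counts, and only a lower bound of the fold difference can be given for them.

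Hsc70-2 (FBgn0001217, 3R from 13044759 to 13047388) and CG31157 (FBgn0051157, 3R from 13047731 to 13049294) are neighbours with 342 bases between them on the same strand, and both rose. Hsc70-2, a member of the Hsp70 family of ATP-dependent chaperones, had 0.127, 0.182, 0.71 and 0.226 CPM in control replicates 1 to 4 and 12.8, 17.8, 18 and 22.1 CPM in the TFAM overexpression replicates in the same order. CG31157 had 0.0844, 0.182, 0.0591 and 0.0903 CPM in control and 3.5, 4.53, 4.22 and 5.31 CPM with TFAM overexpression. For both genes every TFAM overexpression library lay far above every control library. The log2 fold changes were 5.89 (SE 0.45, adjusted p = 0.00186) and 5.30 (SE 0.32, adjusted p = 5.55e-04) in edgeR's test. Both were called whichever library was left out, and without control replicate 3 the value of Hsc70-2 was 6.61. No exon of either gene overlaps another gene.

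Hsp70Bb (FBgn0013278, 3R from 12505793 to 12508139), a copy of the stress-inducible Hsp70, was the other heat shock protein gene called up. Its levels were 27.1, 31.5, 12.2 and 21.5 CPM in control replicates 1 to 4 and 111.8, 162.6, 87.1 and 89.1 CPM in TFAM overexpression replicates 1 to 4. The groups did not overlap, with a log2 fold change of 2.28 (SE 0.32, adjusted p = 0.0227), and 4 of the 8 fits that left out 1 library called it (adjusted p 0.00979 to 0.102). Near-identical copies can share its reads, and whether reads of the driver or transgene were counted there was not tested. Hsp70Bc, which was not called, had 0.296 to 2.28 CPM in control and 0.276 to 2.13 CPM with TFAM overexpression, and Hsp70Ba and Hsp70Bbb, too low to be tested, had at most 1.94 CPM in any library. Hsp68, the related inducible gene, had a mean of 27.4 CPM in control and 28.4 CPM with TFAM overexpression (adjusted p = 0.972). The 15 tested genes for cytosolic heat shock proteins thus held 2 called up (0.267% of all genes tested) and none called down. Of the 15, 10 were higher and 5 lower, with a median log2 fold change of 0.02.

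Of the cytochrome P450 genes, 1 was called up. Cyp6t3 (FBgn0033697, 2R from 12190682 to 12192436), a cytochrome P450 known for its part in making ecdysone in the prothoracic gland, had 1.39, 0.818, 0.237 and 0.813 CPM in control replicates 1 to 4. It had 17.0, 11.7, 15 and 15.6 CPM in TFAM overexpression replicates 1 to 4, a log2 fold change of 4.14 (SE 0.39, adjusted p = 0.00262), and was called in all 8 fits with 1 library left out. Its exons overlap those of CG8858 on the other strand. Of 38 tested P450 genes it was the only one called (0.267% of all genes tested were called up). The median log2 fold change of that list was -0.29 (-0.16 with the length slope as a covariate).

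CG13566 (FBgn0034942) had 0.163 ± 0.0504 CPM (SD, n = 4) in control and rose to 1.83 ± 0.415 CPM (SD, n = 4), with an adjusted p of 0.00236 in edgeR's test. It overlaps alpha-Catr on the other strand, and 378 bases separate it from Fmo-1, a flavin-containing monooxygenase gene. Fmo-1, named after its values were seen, had 0.226 ± 0.17 CPM in control and 1.45 ± 0.578 CPM with TFAM overexpression (SD, n = 4 each), and its groups did not overlap, but it was not called (adjusted p = 0.148) except by DESeq2 (7.23e-04) and in edgeR's fit of 16 libraries (0.0225).

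Other genes that rose were cv-2, Nepl3, thw, FucTB and CG4630. The gene cv-2 (FBgn0000395), which encodes an extracellular protein that binds BMP ligands, had 25.5, 28.8, 20.1 and 20.1 CPM in control and 58.4, 48.4, 57.8 and 67.1 CPM with TFAM overexpression. Its log2 fold change was 1.29 (SE 0.16, adjusted p = 0.0111). Nepl3 (FBgn0031678), which encodes a neprilysin-like protein, rose from 5.7 ± 0.781 to 17.5 ± 2.18 CPM (SD, n = 4 each) with an adjusted p of 0.00287, and overlaps exons of His3.3A on the other strand. The gene thw (FBgn0037487) had 2.83, 2.68, 1.06 and 4.11 CPM in control and 21.9, 15.3, 12.9 and 14.4 CPM with TFAM overexpression, a log2 fold change of 2.58 (adjusted p = 0.0232). In all 3 genes the groups were separated. Nepl3 was called in all 8 fits with 1 library left out, cv-2 in 6 (adjusted p up to 0.0548) and thw in 2 (up to 0.117). FucTB (FBgn0032117), which encodes an alpha-1,3-fucosyltransferase, rose 2.03-fold from 5.53 ± 0.661 CPM (SD, n = 4, adjusted p = 0.0227). CG4630 (FBgn0033809) rose 2.08-fold from 2.01 ± 0.135 CPM (SD, n = 4, adjusted p = 0.0364). FucTB and CG4630 overlap CG42847 and CG4627 on the other strand. The call of CG4630 was lost in each fit with 1 library left out (adjusted p 0.0698 to 0.175), and FucTB was called in 1 of them (0.0248 to 0.118).

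Arc1 and Gadd45 rose as well. Arc1 (FBgn0033926), an activity-regulated gene whose protein, derived from a retrotransposon Gag, forms capsids, had 109, 85.1, 110.2 and 94.0 CPM in control and 279, 212, 227.5 and 306 CPM with TFAM overexpression. Its neighbour Arc2 had 5.66, 5.59, 8.16 and 6.82 CPM in control against 10.6, 12.7, 9.83 and 10.4 CPM, which was separated but not called (log2 fold change 0.73, adjusted p = 0.231). DESeq2 called Arc2 (adjusted p = 0.00311), as did edgeR with the length slope (0.0051) and with 16 libraries (0.0348). Gadd45 (FBgn0033153), a stress-induced regulator of MAP kinase signalling, had 13.2, 13.5, 14.8 and 10.6 CPM in control and 24.0, 26.6, 26.3 and 28.8 CPM with TFAM overexpression. Gadd45 thus rose 2.03-fold (SE of the log2 fold change 0.13, adjusted p = 0.0162), and was called in 3 of the 8 fits with 1 library left out (adjusted p up to 0.078). Of 16 tested activity-regulated and JNK pathway genes, Arc1 was the only one called (0.267% of all genes tested were called up). Hr38, a nuclear receptor gene used as a marker of neuronal activity, had 2.82 ± 1.05 CPM in control and 1.47 ± 0.151 CPM with TFAM overexpression (SD, n = 4 each), separated in the lower direction but not called (adjusted p = 0.485).

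CG15784 (FBgn0029766, X from 5429571 to 5432526) had 24.6, 13.1, 19.3 and 23.9 CPM in control and 106, 86.9, 89.6 and 116 CPM with TFAM overexpression. It rose by a log2 fold change of 2.3 (SE 0.21, adjusted p = 0.00236), overlaps no other gene and was called in all 8 fits with 1 library left out. Oseg2 (FBgn0035317), which encodes an intraflagellar transport protein of cilia, had 0.675, 0.772, 0.414 and 0.858 CPM in control and 3.5, 2.09, 2.01 and 3.58 CPM with TFAM overexpression. Oseg2 was separated and called (adjusted p = 0.0422), but in none of the 8 fits that left out 1 library (0.0603 to 0.15).

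The remaining rises were in genes at or near the floor in control. CG11634 (FBgn0032968) had no count in any control library and 1.36, 1.27, 1.74 and 1.39 CPM in TFAM overexpression replicates 1 to 4. The taste receptor gene Gr58c (FBgn0041237) had 1 count in all control libraries together and 1.11, 0.876, 0.79 and 0.885 CPM with TFAM overexpression, at least 6.46-fold higher. CG15731 (FBgn0030390) had at most 3 counts in a control library and 2.69, 3.02, 1.58 and 2.49 CPM with TFAM overexpression, at least 17.3-fold higher. CG42364 (FBgn0259710) reached 0.474 to 1.05 CPM, at least 5.69-fold higher, and shares exons with CG42362 and CG42363 on its own strand. All 4 were called (adjusted p 0.00447, 0.00341, 0.00236 and 0.0206 in the order named), CG42364 in 1 of the 8 fits with 1 library left out (up to 0.0957) and the other 3 in all 8. CG14963 (FBgn0035409) rose from 0.522 ± 0.0883 to 2.1 ± 0.137 CPM and CG17217 (FBgn0032419) from 0.264 ± 0.101 to 1.94 ± 0.843 CPM (SD, n = 4 each), and these overlap CG32278 and CG6583 on the other strand. CG14963 was called in all 8 such fits and CG17217 in 2 (adjusted p up to 0.117).

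Long noncoding RNAs made up 5 of the 28 called genes, 4 up and 1 down, out of 295 that were tested. Over all genes tested, 0.267% were called up and 0.0321% down. lncRNA:CR40469 (FBgn0058469, X from 122493 to 122706) had 0.38, 0.318, 0.414 and 0.361 CPM in control and 9.72, 22, 5.69 and 9.53 CPM with TFAM overexpression, and TFAM overexpression replicate 2 was the highest. lncRNA:CR46123 (FBgn0267798) had no more than 2 counts in any control library and 3.67, 2.48, 5.53 and 2.78 CPM with TFAM overexpression, at least 25.5-fold higher. lncRNA:CR44138 (FBgn0264987) had 0.0844, 0.0908, 0.237 and 0 CPM in control and 6.23, 8.08, 4.22 and 6.41 CPM with TFAM overexpression, a log2 fold change of 5.94 that was 6.61 without control replicate 3. lncRNA:CR44608 (FBgn0265819) had at most 2 counts in a control library and 0.768, 1.7, 0.592 and 0.59 CPM with TFAM overexpression, at least 6.45-fold higher. The first 3 were called in all 8 fits with 1 library left out and lncRNA:CR44608 in 2 (adjusted p up to 0.129).

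**Figure D2:**
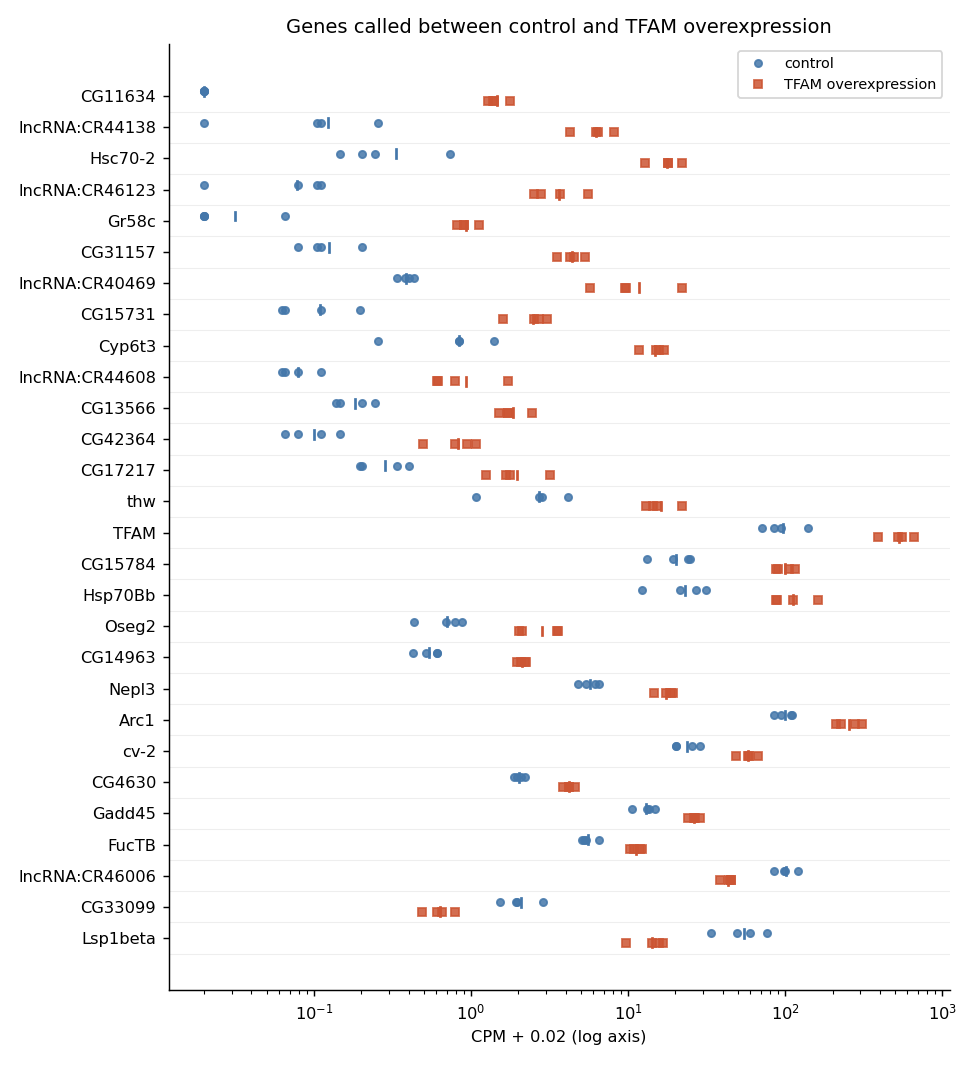
CPM of the 28 called genes in each library, on a log axis with 0.02 added so that a count of 0 can be drawn. Circles are the 4 control libraries, squares the 4 TFAM overexpression libraries, and the short bars the group means. In every gene the circles and squares do not overlap, and 15 genes have a control mean below 1 CPM.

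Down-regulated genes were fewer. Of the 3 called down, lncRNA:CR46006 (FBgn0267668, 3L from 10323501 to 10367450) had 84.6, 99.1, 121 and 98.3 CPM in control and 38.4, 45.0, 44.9 and 43.9 CPM with TFAM overexpression. It lies across the precursor of the microRNA mir-276a, which had no counts of its own in any of the 8 libraries, and it fell by 1.23 on the log2 scale (SE 0.13, adjusted p = 0.00388). The libraries were separated and all 8 fits with 1 library left out called it. CG33099 (FBgn0053099) had 1.94, 1.5, 2.84 and 1.9 CPM in control and 0.768, 0.584, 0.632 and 0.464 CPM with TFAM overexpression (adjusted p = 0.0494), and none of those 8 fits called it (0.0698 to 0.217).

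Lsp1beta (FBgn0002563, 2L from 898500 to 901316), one of 3 subunits of the larval serum protein Lsp1 that the fat body stores amino acids in and secretes into the hemolymph, was also called down. It had 76.7, 59.5, 49.1 and 33.8 CPM in control replicates 1 to 4 and 14.2, 16.6, 9.71 and 15.8 CPM in TFAM overexpression replicates 1 to 4, and fell by 1.96 on the log2 scale (SE 0.27, adjusted p = 0.0222). Its call held in 3 of the 8 fits with 1 library left out, those without control replicate 1, 3 or 4. Lsp1alpha had 40.5, 37.2, 52.5 and 23.3 CPM in control and 5.12, 15.5, 5.53 and 10.4 CPM with TFAM overexpression, and Lsp1gamma had 40.4, 62.2, 47.3 and 20.5 CPM against 7.72, 16, 6.28 and 10.6 CPM. Neither passed the threshold (log2 fold change -2.08, adjusted p = 0.105, and -2.07, adjusted p = 0.101). Among the 8 fits with 1 library left out, Lsp1alpha passed only without TFAM overexpression replicate 2 (0.0456) and Lsp1gamma only without control replicate 4 (0.0439). In each of the 3 subunit genes the lowest control library was replicate 4, which still exceeded every TFAM overexpression library. The related storage protein Lsp2, whose exons overlap asRNA:CR11538, had 10.3 ± 6.78 CPM in control and 2.22 ± 0.648 CPM with TFAM overexpression (SD, n = 4 each), separated but not called (adjusted p = 0.179).

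Of the 11 tested genes on the fat body and serum list, 1 was called down (0.0321% of all genes tested) and 6 had an unadjusted p under 0.05 in the lower direction (2.49%), with a median log2 fold change of -1.93. Fbp1, the receptor by which fat body takes up serum protein, and Fbp2 were the other members with such a p, and their libraries overlapped. Fbp1 had 184, 58.6, 268.5 and 33.2 CPM in control against 36.9, 47.7, 30.9 and 27.5 CPM. The remaining 5 members were lipid transport and synthesis genes, and their log2 fold changes ran from -0.03 (FASN1) to 0.26 (Lpin). Summed over the 11 genes, which include abundant lipid transport genes, the level was 1239 to 2226 CPM in control and 1245 to 1812 CPM with TFAM overexpression. With DESeq2 in place of edgeR, 6 of the 11 were called down (0.457% of all genes tested), and with the length slope as a covariate of edgeR 3 were (0.331%). The median was -1.67 in that fit and -1.52 without the 2 libraries of lowest slope. In bulk tissue, less adhering tissue, less RNA per cell and a difference in developmental stage cannot be told apart. This holds here and in the groups that follow.

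Of the cuticle genes, 17 of 119 on the list passed the filter and none was called. In the lower direction 8 had an unadjusted p under 0.05 (2.49% of all genes tested) and 6 were separated (1.82%). Fold changes of 4 members were positive (up to 0.79, none with such a p), and the median log2 fold change was -0.35. Those with the smallest p were Lcp1 to Lcp4, neighbouring genes on 2R for structural proteins of the larval cuticle. Lcp3 (FBgn0002534) had 12.4, 15.5, 15.1 and 65.1 CPM in control and 2.52, 2.43, 1.58 and 2.7 CPM with TFAM overexpression, a log2 fold change of -3.55 (adjusted p = 0.0662). Control replicate 4 raised both the mean and the spread, and without that library Lcp3 fell by 2.61 and was called (adjusted p = 0.00802). No other fit with 1 library left out called Lcp3. Lcp1 had 26.1, 56.8, 32.1 and 73.3 CPM in control and 16.1, 6.57, 9.0 and 7.71 CPM with TFAM overexpression (log2 fold change -2.26, adjusted p = 0.0829). Lcp2 and Lcp4 had log2 fold changes of -2.42 (adjusted p = 0.116) and -2.71 (adjusted p = 0.105), and in all 4 genes no libraries overlapped. With 1 library left out, Lcp4 was called only without control replicate 3 (0.0331) or 4 (log2 fold change -1.97, adjusted p = 0.0436). Lcp2 was called only without control replicate 1 (0.0464). Over the whole list the summed level was 159 to 287 CPM in control and 87 to 109.1 CPM with TFAM overexpression. DESeq2 called 4 of these genes down (0.457% of all genes tested) and the fit with the length slope 3 (0.331%).

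**Figure D3:**
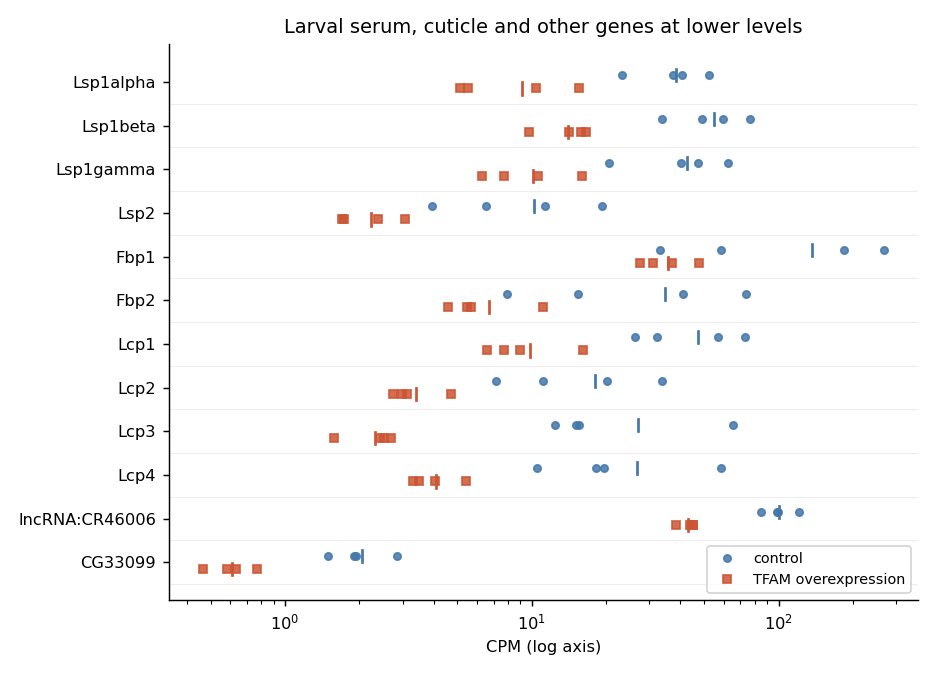
CPM on a log axis of larval serum protein genes (Lsp1alpha to Lsp2), fat body genes (Fbp1, Fbp2), cuticle genes (Lcp1 to Lcp4) and the called genes lncRNA:CR46006 and CG33099, in the 4 control libraries (circles) and 4 TFAM overexpression libraries (squares), with bars for the means. The groups are separated in each gene but Fbp1 and Fbp2, and Lcp3 and Lcp4 in control replicate 4 stand far above the other control libraries.

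Other genes among the 12 lower ones with the smallest p were CG42500, CG14258, CG18278 and the pseudogene CR43086. CG42500 had 11.4, 24.4, 29.4 and 20.0 CPM in control and 6.31, 6.37, 2.84 and 3.25 CPM with TFAM overexpression (log2 fold change -2.18, adjusted p = 0.0689). CG18278, which overlaps BaraA2, had 6.22 ± 2.07 against 1.46 ± 0.7 CPM, CG14258 1.1 ± 0.372 against 0.302 ± 0.0359 CPM and CR43086 2.9 ± 0.938 against 0.78 ± 0.282 CPM (SD, n = 4 each). All 4 were separated and missed the threshold in edgeR's test, with adjusted p between 0.0689 and 0.099, and DESeq2 called all 4. With 1 library left out, CG42500 passed the threshold only without control replicate 1 (0.0419) and CG14258 only without control replicate 2 (0.0471).

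Some other lower genes, chosen after their values were seen, were also separated without being called. Tdc2, the neuronal tyrosine decarboxylase of octopamine and tyramine synthesis, had 6.8, 9.81, 8.99 and 14.1 CPM in control and 4.01, 5.6, 3.87 and 5.19 CPM with TFAM overexpression (log2 fold change -1.09, adjusted p = 0.205), and DESeq2 called it (0.0069). The G protein-coupled receptor genes mthl3 and mthl8 had log2 fold changes of -0.66 (adjusted p = 0.122) and -0.60 (adjusted p = 0.154), and were called by DESeq2 (0.00132 and 0.00221) and with the length slope (0.0208 and 0.0242). Among 37 tested neuropeptide genes none was called, 6 had an unadjusted p under 0.05 and were lower (2.49% of all genes tested), and the median was -0.28. Dh31, for a diuretic hormone, had the smallest p of these, with 60.4 ± 5.32 against 43.7 ± 5.65 CPM (SD, n = 4 each) and an adjusted p of 0.359.

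Cell type markers were compared to see what moved with these genes. The 17 neuron markers had a median log2 fold change of -0.01 and the 13 neuroblast and proliferation markers 0.04, with no gene called in either list. The 12 glia markers had a median of -0.20, and none was called. Their summed level was 2420 to 3181 CPM in control and 2052 to 2425 CPM with TFAM overexpression, and no glia marker was at 0. Gs2, which encodes glutamine synthetase, had 328, 477, 329.6 and 734 CPM in control against 246, 289, 231 and 310.4 CPM, and was separated but not called (log2 fold change -0.80, adjusted p = 0.685). The astrocyte gene alrm had 361, 460.4, 1031 and 553 CPM in control and 279, 558, 270.2 and 288 CPM with TFAM overexpression. In alrm the libraries of lowest length slope were the highest of their groups, and with the slope as a covariate alrm and wrapper were called down (adjusted p = 0.038 and 0.0129). The general glial gene repo had a log2 fold change of -0.01. Muscle genes (15 tested), hemocyte genes (12) and ring gland genes (8) held no called gene, with medians of -0.29, -0.16 and -0.97. Without the 2 libraries of lowest slope the medians of muscle and ring gland genes were -0.56 and -0.15, and with the slope as a covariate that of ring gland genes was -0.73. Salivary glue genes summed to 2.07 to 91.1 CPM in control and 0.633 to 219 CPM with TFAM overexpression, and single libraries of both groups held most of them. Of 7 glue genes tested, 6 were higher and none was called, with a median of 2.44 (1.65 with the slope as a covariate). Of 21 tested ecdysone response genes, 16 were higher, 5 lower and none called, with a median of 0.21. What part adhering tissue or developmental stage has in the lower serum and cuticle genes was not tested.

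No listed gene of the integrated stress response or the ER unfolded protein response, the stress pathways that the study examined, was called. crc had 199, 187, 228 and 201 CPM in control and 214, 235, 169 and 185 CPM with TFAM overexpression, which overlap (adjusted p = 0.960), and reads there may belong to CG46314 on the same strand. ATF4 is controlled at translation, which these counts do not measure. Of 16 tested genes of the integrated stress response none was called, 2 had an unadjusted p under 0.05 and were higher (1.85% of all genes tested), and the median was 0.10. Thor, the 4E-BP that restrains cap-dependent translation, had 18.6, 6.4, 14.4 and 11.8 CPM in control and 44.4, 32.7, 32.3 and 28.8 CPM with TFAM overexpression. Thor was separated, at a log2 fold change of 1.43 (SE 0.30, adjusted p = 0.154), and DESeq2 called it (adjusted p = 4.56e-04), as it did 0.587% of all genes upward. Xrp1, a bZIP factor induced by proteotoxic and ribosomal stress, had 205 ± 47.8 CPM in control and 305 ± 50.5 CPM with TFAM overexpression (SD, n = 4 each, adjusted p = 0.795). The eIF2alpha kinases PEK and Gcn2 and the ER stress factor Xbp1 had log2 fold changes of 0.17, 0.14 and -0.11, with adjusted p of at least 0.88, and the direction of Gcn2 and Xbp1 turned when control replicate 3 was left out (-0.02 and 0.18).

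Neither of the lists for chaperones of other compartments held a called gene. The 21 genes of the ER unfolded protein response had a median of 0.05, and the 13 mitochondrial chaperones and proteases one of 0.14, of which 10 were higher. In the latter Afg3l2, a protease of the inner membrane, had 107, 113, 124 and 120.2 CPM in control and 138, 157, 142 and 161 CPM with TFAM overexpression, a separation of 1.29-fold that was not called (adjusted p = 0.435) except by DESeq2 (0.0161) and with the length slope (0.0208). Hsc70-5, the mitochondrial Hsp70, had 219 ± 31.0 against 259 ± 23.1 CPM (SD, n = 4 each, adjusted p = 0.880). Alr, a sulfhydryl oxidase of the import pathway into the intermembrane space that shares exons with parvin, had 15.5 ± 1.14 against 23.4 ± 2.02 CPM (SD, n = 4 each), also separated without being called (adjusted p = 0.116) except by DESeq2 (2.48e-04), with the length slope (0.0184) and with 16 libraries (0.022).

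The study also measured metabolites, in adult heads with TFAM overexpressed over a heterozygous TFAM mutation. Stage, tissue and genotype there differ from these larval CNS libraries, in which metabolic genes are described next. Ldh, whose enzyme reduces pyruvate to lactate and can also make L-2-hydroxyglutarate, had 65.8, 88.4, 120.4 and 256 CPM in control and 379, 500.2, 306 and 447 CPM with TFAM overexpression. No libraries overlapped, but control replicate 4 lay close to TFAM overexpression replicate 3, and the log2 fold change of 1.62 (SE 0.40) had an adjusted p of 0.293 in edgeR's test. Without control replicate 4 it was 2.18 (adjusted p = 0.0205), and DESeq2 called Ldh with all libraries (adjusted p = 0.00437).

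Sugar uptake genes were the group with the highest median of the metabolic lists, at 0.26 over 10 genes, 9 of them higher and none called. Of the 10, 4 had an unadjusted p under 0.05 and were higher (1.85% of all genes tested). Tret1-1, the trehalose transporter, had 39.9, 41.6, 46.5 and 67.1 CPM in control and 94.2, 114.8, 75.6 and 109.6 CPM with TFAM overexpression (log2 fold change 1.01, adjusted p = 0.122). The sugar transporter gene nebu had 284, 285, 254 and 294 CPM in control and 444, 434, 375 and 432 CPM with TFAM overexpression (log2 fold change 0.59, adjusted p = 0.101). Both were separated, and both were called by DESeq2 (adjusted p = 6.84e-04 and 3.94e-06) and with the length slope as a covariate (0.0346 and 0.00522), which called 0.727% of all genes upward. Of edgeR's fits with 1 library left out, only that without control replicate 4 called Tret1-1 (log2 fold change 1.23, adjusted p = 0.038). Of 12 glycolytic genes none was called. Hex-A, a hexokinase, had 188 ± 69.2 against 346 ± 84.0 CPM (SD, n = 4 each, adjusted p = 0.667), and the list's median was -0.05. The 19 TCA cycle genes had a median of -0.02. AsnS, asparagine synthetase and a known ATF4 target in mammals, had 70.7, 65.4, 70.2 and 78.4 CPM in control and 92.1, 101.6, 90.8 and 88.2 CPM with TFAM overexpression, separated at 1.31-fold but not called (adjusted p = 0.312). DESeq2 called AsnS (adjusted p = 0.0114), as did edgeR with the length slope (0.0262) and with 16 libraries (0.0201), and the 16 genes of its list had a median of -0.07.

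Other detoxification gene families had negative medians. Of 14 tested UDP-glycosyltransferase genes none was called. With an unadjusted p under 0.05, 5 were lower (2.49% of all genes tested) and 1 was higher (1.85%). The median was -0.54 (-0.67 without the 2 libraries of lowest slope). The 26 glutathione S-transferase genes, with a median exon length of 928 bases, had a median of -0.21, which was -0.07 with the length slope as a covariate. GstD2 was higher, at 0.971, 1.5, 1.83 and 1.81 CPM in control against 2.94, 4.92, 2.76 and 4.05 CPM (adjusted p = 0.205, and 0.00372 in DESeq2), while its neighbour GstD3 had 61.4 ± 21.8 against 31.8 ± 9.69 CPM (SD, n = 4 each, adjusted p = 0.526). With the length slope as a covariate GstD2 was called up (adjusted p = 0.0262) and GstD3 down (0.0167). Among 13 antioxidant enzyme genes none was called.

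**Figure D4:**
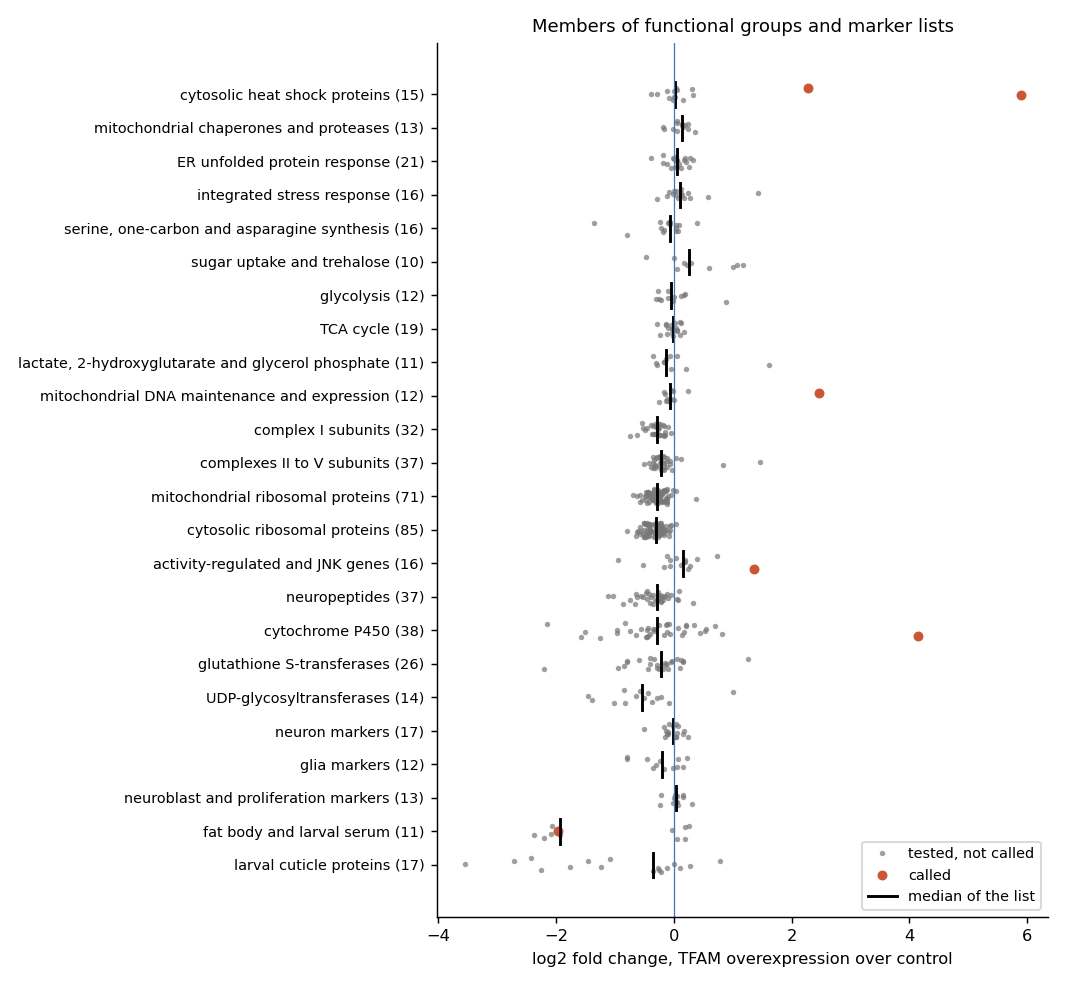
Log2 fold change of TFAM overexpression over control (x axis) for the tested members of 24 functional groups and marker lists, with the number tested in brackets. Grey points were not called, red points were called, and the black bar is the list's median. The 5 red points above 0 are Hsc70-2, Hsp70Bb, TFAM, Arc1 and Cyp6t3, the one below is Lsp1beta, and the ribosomal and respiratory chain lists lie tightly between -1 and 0 for nearly every member.

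The gene groups for ribosomes and the respiratory chain had negative fold changes that moved with the length slope. All 32 tested subunits of complex I were lower with a median of -0.29, as were 33 of 37 subunits of complexes II to V (median -0.21), 69 of 71 mitochondrial ribosomal protein genes (-0.28) and 84 of 85 cytosolic ribosomal protein genes (-0.31). None was called, and none had an unadjusted p under 0.05 and was lower. In complexes II to V 1 member had such a p and was higher (1.85% of all genes tested), and log2 fold changes there reached 1.46. Their median exon lengths were between 783 and 916 bases, against 2187 bases over all genes tested. The summed level of cytosolic ribosomal protein genes was 98832, 114260.4, 233640.4 and 127345 CPM in control replicates 1 to 4 and 92456, 161572, 102031 and 95212 CPM in TFAM overexpression replicates 1 to 4. Control replicate 3 and TFAM overexpression replicate 2, the libraries of lowest slope, were the highest. With the slope as a covariate the 4 medians were -0.06, -0.04, -0.04 and -0.06, in the order named above, and without those 2 libraries they were -0.19, -0.14, -0.18 and -0.20. The slope was computed over the genes tested, which include these lists, so the covariate and these medians are not independent.

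**Figure D5:**
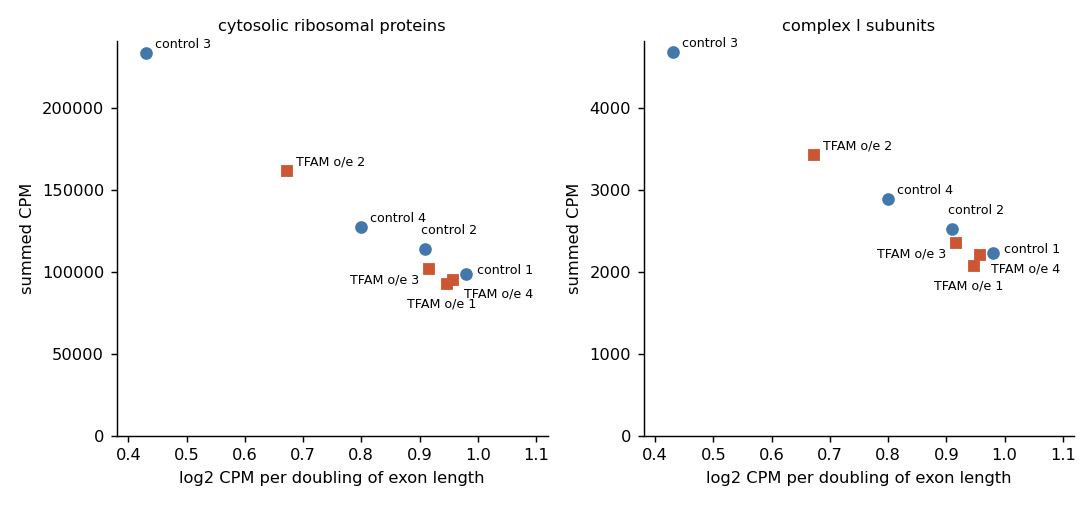
Summed CPM of cytosolic ribosomal protein genes (left) and complex I subunit genes (right) against the slope of log2 CPM on each doubling of exon length, for the 4 control (circles) and 4 TFAM overexpression libraries (squares). Both are computed from the same counts. Control replicate 3, with a slope of 0.43, and TFAM overexpression replicate 2, with 0.672, have the highest sums.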

How the data were processed

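PolyA RNA libraries of 4 control and 4 TFAM overexpression pools of larval CNS were analysed. The authors deposited raw counts per gene, without normalization, for 17698 genes. Per the labels, reads from a stranded kit were processed with Bowtie2 2.3.4.2 and featureCounts 1.6.3 on dm6, and FastQC 0.52 and DESeq2 2.11.40.6 are also named. Per the study's methods these ran in Galaxy with default settings. The counting annotation and strand setting are not named in the sources used here, so reads of overlapping genes on either strand are uncertain in origin. Of the genes, 17560 had a symbol and exon length in the Ensembl annotation of BDGP6, the same assembly.

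Counts were scaled with TMM, filtered with filterByExpr (minimum count 10) and tested in R 4.3.3 with edgeR 4.0.16 (quasi-likelihood fit, Benjamini-Hochberg adjustment over all genes tested), with calls at an adjusted p under 0.05 and at least a 1.2-fold change. SEs were taken from the fold change and test statistic. The test was checked on simulated counts. Alternatives used DESeq2 1.42.0, limma-voom (limma 3.58.1), other filters and thresholds, a replicate block, the length slope of each library, all 16 libraries and leaving out each library.

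Nothing in the labels ties same-numbered replicates together, and they were not treated as pairs. Replicates differed by more than sampling noise (chi-square per degree of freedom at least 12.7) and were counted separately. Members and lists were chosen with earlier results of these data known. Genes could be named if targeted or named by the study, called, among the 4 smallest p of a list, or among the 12 lower genes with the smallest p. Others are said to be chosen after their values were seen, as were the near-identical Hsp70 copies, Hsp68, Fbp1, Fbp2, alrm, wrapper, repo, Alr, MnM, CG5326 and Sgs3. The floor of 3 counts covers counting error only. Some list genes had no identifier here and were not analysed. Of the genes that the rule allows, those that carry no result given here are left out, and 1 is not reported here. Cpr, CCT2 and Dpm1 were taken off the cuticle, mitochondrial chaperone and serine lists, where their functions have no place, after values were seen.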

Additional observations from a re-analysis of the deposited data

Results flagged for a closer look

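A library of a group of 4 is listed here where it lay far from the other 3 by Dixon's test for an extreme value. Of 168 groups of 4 libraries, 18 were so marked, and chance marks about 1 in 20. TFAM overexpression replicate 2 was the library apart in 5 of them. It had 1.7 CPM of lncRNA:CR44608 (others 0.59 to 0.768), 11.1 CPM of Fbp2 (4.56 to 5.65), 605 CPM of Xbp1 (384 to 415), 558 CPM of alrm (270.2 to 288) and 247 CPM of wrapper (187.5 to 192). Control replicate 3 was apart in 5 groups, with 0.71 CPM of Hsc70-2 (others 0.127 to 0.226), 71.2 CPM of PEK (92.8 to 96.7), 743 CPM of Xbp1 (364 to 428), 173 CPM of Hsc70-5 (233 to 236) and 68.7 CPM of mthl3 (58.9 to 60.6). These are the libraries of lowest length slope of the 2 groups.

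TFAM overexpression replicate 1 was apart in 5 groups. It had 0.895 CPM of Hsp70Ba (others 0.0973 to 0.211), 0.554 CPM of Hsp70Bbb (0.0843 to 0.118) and 2.13 CPM of Hsp70Bc (0.276 to 0.487), 3 near-identical copies that can share reads. It also had 38.4 CPM of lncRNA:CR46006 (43.9 to 45.0) and 18.4 CPM of CG42694 (10 to 11.3). Control replicate 4 had 65.1 CPM of Lcp3 (12.4 to 15.5) and 10.9 CPM of the salivary glue gene Sgs3 (0.177 to 1.86), and TFAM overexpression replicate 3 had 35.3 CPM of Dh31 (46.0 to 47.0).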

How the results depend on the processing

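Of the 25 genes called up and 3 called down, all 28 were also called the same way by DESeq2 without a prior (68 up, 53 down), by DESeq2 with a prior (69 up, 50 down), in edgeR with all 16 libraries in 1 fit (63 up, 29 down) and with the length slope as a covariate (68 up, 31 down). DESeq2 and the slope fit shared 48 genes up and 20 down. Size factors of DESeq2, no fold threshold and a threshold of 1.5-fold gave the same counts as reported. With no filter on low counts 26 of the 28 were kept, as were 26 with limma-voom and 24 with a filter at 1 FPKM. With a replicate block, 9 genes were called up and 0 down, of which all 9 were among the 28, and 155 higher and 191 lower genes had an unadjusted p under 0.05. The block also lost calls that held whichever library was left out. These were CG11634 (adjusted p = 0.404), CG14963 (0.119), Nepl3, Arc1 and Gr58c (each 0.0965), CG15731 and lncRNA:CR44138 (each 0.0702) and lncRNA:CR46006 (0.0553). Libraries of the same number correlated at 0.35, -0.38, -0.25 and 0.54 in their deviations from the group means, and 3 of 8 correlated best with their own number. Leaving out 1 library gave 16 to 21 genes up (16 without control replicate 1 or TFAM overexpression replicate 1 or 3) and 1 to 5 down (5 without control replicate 4, 1 without TFAM overexpression replicate 1, 3 or 4). Of the 28 calls, 16 held in all 8 of these fits, 9 in some and 3 in none. Leaving out both libraries of lowest slope, a choice made after seeing the data, gave 29 up and 4 down. TFAM was called in every alternative named here.

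Genes near 0 that were not called changed sign. With 1 library left out, log2 fold changes ran from -0.09 to 0.05 for crc, -0.02 to 0.25 for Gcn2, -0.27 to 0.18 for Xbp1, -1.42 to 0.60 for Hsp70Bc and -0.17 to 0.44 for Hsp68. With the slope they were 0.03 for crc, 0.11 for Xbp1 and -0.10 for Hsp68, with no filter 0.00 for crc, and without both libraries of lowest slope 0.01 for Xbp1 and -0.04 for Hsp68. The cause was not tested. Genes at a few counts per library, which include most of the largest rises, are limited by depth, and their fitted folds depend on the prior count.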

Other observations

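Among the 12 higher genes that were not called and had the smallest p, a rule added after the values were seen, several had named functions. Rgk2, a small GTPase whose relatives restrain voltage-gated calcium channels, had 19.0, 18.2, 14.5 and 17.6 CPM in control and 26.5, 25.2, 30.6 and 32.0 CPM with TFAM overexpression (log2 fold change 0.72, adjusted p = 0.099 in edgeR's test). The lipase gene puml, which overlaps cathD on the other strand, had 36.8 ± 2.61 against 53.9 ± 4.65 CPM (SD, n = 4 each, adjusted p = 0.105 in edgeR's test). CG42694 had 4.56, 4.68, 5.85 and 3.75 CPM in control and 18.4, 11.3, 10 and 10.2 CPM with TFAM overexpression (adjusted p = 0.0757), CG1113 had 0.655 ± 0.174 against 2.35 ± 0.739 CPM (adjusted p = 0.0689 in edgeR's test, SD, n = 4 each), and CG6602, which overlaps CG13295, had 1.28 ± 0.304 against 3.08 ± 0.173 CPM (adjusted p = 0.0662 in edgeR's test, SD, n = 4 each). All 5 were separated between the groups, and all 5 were called by DESeq2 and with the length slope as a covariate. Outside those 12, the GTPase gene Dgp-1, chosen after its values were seen, had 71.6, 70.4, 95.7 and 84.1 CPM in control and 133, 217, 122 and 151 CPM with TFAM overexpression (adjusted p = 0.154), with TFAM overexpression replicate 2 the highest. DESeq2 called Dgp-1 (adjusted p = 0.00108), as did edgeR with the length slope (0.00428), with 16 libraries (0.00379) and without both libraries of lowest slope (0.0135).

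Some called genes had a neighbour with a fold change in the same direction. Of the 28 called genes, 7 (25%) had a tested gene within 10000 bases with an unadjusted p under 0.05 and the same direction, as had 8.31% of all genes tested with coordinates. These include Hsc70-2 and CG31157, which are each other's neighbour, Arc1 with Arc2 (1626 bases apart) and CG13566 with Fmo-1. CG14963 had MnM at 271 bases on the same strand (log2 fold change 1.04, adjusted p = 0.451 in edgeR's test), and CG33099 had CG5326 at 1601 bases on the same strand, with a log2 fold change of -0.91 (adjusted p = 0.415 in edgeR's test). Outside the called genes, the short-chain dehydrogenase gene CG2065 and its neighbour Rdh1, a retinol dehydrogenase gene, both chosen after their values were seen, had log2 fold changes of 1.00 and 0.77 (adjusted p = 0.177 and 0.244 in edgeR's test), both separated. DESeq2 called CG2065 and Rdh1 (adjusted p = 7.85e-04 and 0.00677), as did edgeR with the length slope (0.0134 and 0.00844) and with 16 libraries (0.00924 and 0.0145). Shared reads at overlapping ends were not tested.

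The pigment genes w and y, which transgene insertions can carry, had log2 fold changes of 0.46 and 0.84 (adjusted p = 0.88 and 0.667 in edgeR's test). Levels of y were 1.69, 1.59, 0.887 and 1.81 CPM in control and 2.81, 3.41, 1.97 and 2.57 CPM with TFAM overexpression, and the groups did not overlap.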
